A study of Mus musculus with 2 samples.

Results

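Cells of the skeletal muscle lineage made up 153 of the 22737 cells kept from mouse tongue tumours, 21 from the control library and 132 from the JQ1 library. They were chosen by their transcripts. A kept cell had UMIs of at least 200 genes and under 20% mitochondrial UMIs (a UMI, or unique molecular identifier, stands for 1 captured transcript). A muscle lineage cell had in addition at least 2 UMIs summed over Pax7, Myf5, Myod1, Myog and Cdh15, no UMI of Ptprc, Pecam1 or Cdh5, and under 0.5% of its UMIs from Krt5 and Krt14. These 5 muscle genes are therefore not findings. The tumours were head and neck squamous cell carcinomas (HNSCC) in the tongues of wild-type C57BL/6 mice, induced with the chemical carcinogen 4NQO. The mice then received JQ1, an inhibitor of the acetyl-lysine-binding BET bromodomain proteins, or a control treatment for 10 days. Single cells of tumour tissue were profiled on the 10x Genomics 3′ platform, with 1 library for each treatment. The sources used here give neither the number of mice behind each library nor the composition of the control treatment.

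Tongue muscle is skeletal muscle, and its stem cells, the satellite cells, lie between the fibre and its basement membrane. Pax7 marks them in the quiescent state. Myf5 and Myod1 are the transcription factors of committed and activated cells, and Myog drives the step to terminal differentiation, fusion and the contractile programme. Cdh15 (M-cadherin) is a cell adhesion molecule of satellite cells and myoblasts. A droplet assay takes up mononuclear cells, so multinucleate fibres are not sampled as cells. The comparison cells were fibroblasts of the same libraries, taken as kept cells that were not muscle lineage cells, met the same immune, endothelial and keratin limits, and had at least 0.5% of their UMIs from Col1a1, Col1a2 and Dcn. There were 730 in the control library and 3909 in the JQ1 library.

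Because each treatment had 1 library, no test of JQ1 against control was possible, and intervals below cover counting error only. The control library held 118382532 UMIs in 9754 barcodes and the JQ1 library 99565417 UMIs in 16233 barcodes. Barcodes at the keratin limit made up 57.4% of kept cells in the control library and 8.44% in the JQ1 library, and fibroblasts 8.83% and 27.0%. The libraries shared 40 barcodes, none of them a muscle lineage cell. Scrublet, a caller of doublets (droplets with more than 1 cell), marked 1.44% and 2.93% of kept cells, and among them 0 control and 2 JQ1 muscle lineage cells, which were left in.

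Muscle lineage cells had a median of 2505 UMIs in the control library (range 1476 to 38279) and 2952 in the JQ1 library (763 to 45655). Fibroblasts had medians of 3134.5 and 3951 UMIs. A few deep cells weighed heavily on summed counts. In the control library 1 cell with 38279 UMIs carried 43.3% of all UMIs of the 21 cells. It qualified by 2 UMIs of Cdh15 alone, had no UMI of the 8 muscle markers outside the rule described below, and held 79 UMIs of Krt14, 38 of Krt13 and 1530 of Fabp5, all genes of keratinocytes. In the JQ1 library 6 cells with over 10000 UMIs carried 22.6% of the UMIs. Of these, a cell with 17716 UMIs also qualified by 2 UMIs of Cdh15 alone and had 826 of the 876 Col1a1 UMIs. Another, with 18570 UMIs, held 7 UMIs of Myod1 and 1264 UMIs of the salivary mucin gene Muc5b. The deepest, with 45655 UMIs, held 69 UMIs of Des and 12 of Itga7, both muscle genes. Values over the 20 control and 126 JQ1 cells under 10000 UMIs, a limit chosen after the data were seen, are therefore given beside many of the summed values. Without the deepest cell the control total fell from 88462 to 50183 UMIs, so the control CPM of a gene with no UMI in that cell is larger there by the same factor.

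**Figure D1:**
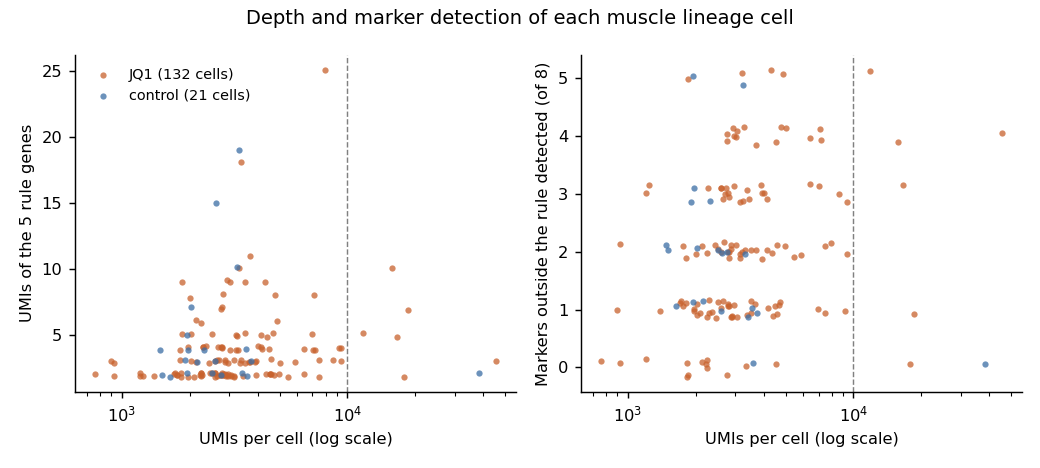
Depth and muscle transcripts of the 153 muscle lineage cells. Each point is 1 cell, with its total UMIs on a log axis (x) against its UMIs of the 5 genes of the rule (left) and the number of the 8 muscle markers outside the rule that it holds (right), the dashed line standing at 10000 UMIs. Most cells lie at 2 to 5 UMIs of the rule genes, and the deepest control cell, at 38279 UMIs, holds 0 of the 8 markers.

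The label was checked with 8 muscle markers that the rule did not use, among them Des (desmin, the intermediate filament of muscle), Chrdl2 (a secreted BMP antagonist), Itga7 (the muscle laminin receptor chain), Megf10 (a receptor of satellite cells), Fgfr4 (an FGF receptor of muscle progenitors), and Musk and Chrna1 (both of the neuromuscular junction). At least 1 of them was detected in 19 of 21 control cells (90.5%, exact binomial 95% interval 69.6 to 98.8) and 118 of 132 JQ1 cells (89.4%, 82.8 to 94.1). In fibroblasts the shares were 25.8% and 28.3%. At least 2 markers were detected in 57.1% and 58.3% of muscle lineage cells, against 2.88% and 4.99% of fibroblasts. In the summed counts, given as CPM (UMIs of a gene scaled to a common library size), 7 of the 8 markers were higher than in fibroblasts of both libraries. Musk was the exception, with 0 control UMIs and 5 JQ1 UMIs (8.97 CPM) against 16.7 and 22.6 CPM in fibroblasts.

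Just outside the rule, kept cells with exactly 1 UMI of the 5 genes numbered 12 in the control library and 84 in the JQ1 library, and 66.7% and 71.4% of them held one of the 8 markers. Just inside, at exactly 2 UMIs, there were 8 and 52 cells, of which 6 and 43 held one. Cells with 3 or more UMIs numbered 13 and 80, of which 13 and 75 held one. A further 6 control cells with 2 or more UMIs were left out for their keratin, as were 15 JQ1 cells, 13 of them for an immune or endothelial UMI and 2 for keratin. The fibroblast limit was met by 1 control and 6 JQ1 muscle lineage cells.

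The rule genes were found in different combinations, given here as a description of the cells they selected. Pax7 was detected in 12 of 21 control and 70 of 132 JQ1 cells, Myf5 in 12 and 76, Myod1 in 9 and 43, and Cdh15 in 9 and 49. Pax7 and Myf5 were found together in 6 control and 40 JQ1 cells, and Pax7 and Myod1 in 6 and 16. Myod1 without Pax7 was seen in 3 and 27, and neither Pax7 nor Myog in 9 and 59. Myog was detected in 0 of 21 control cells, which allows a share of up to 16.1%, and in 4 of 132 JQ1 cells (3.03%, 0.832 to 7.58). At 2 to 3 UMIs a cell, absence of a gene is often a matter of depth: thinned to 2000 UMIs, Pax7 was detected in 6 of 14 control cells and 41 of 111 JQ1 cells.

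The share of each rule gene's UMIs that lay in muscle lineage cells varied, and since these genes chose the cells it is a description. Muscle lineage cells held 20 of the 24 Pax7 UMIs among kept control cells and 112 of 145 in the JQ1 library. For Myf5 they held 25 of 28 and 179 of 237 UMIs, and for Myod1 41 of 43 and 141 of 156. For Cdh15 they held 14 of 78 and 74 of 122, and barcodes at the keratin limit held 60 of the 78 control and 8 of the 122 JQ1 Cdh15 UMIs. For Myog they held 0 of 1 and 13 of 23. Among fibroblasts 0 of 730 and 14 of 3909 had any UMI of the 5 genes.

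Muscle lineage cells were 0.254% of kept cells in the control library (0.157 to 0.388) and 0.912% in the JQ1 library (0.764 to 1.08), a difference of 0.658 points (Newcombe 95% interval 0.463 to 0.848). The size of the difference moved with the denominator. Among kept cells under the keratin limit the shares were 0.596% and 0.996%, 0.400 points apart (0.0504 to 0.676). Counted against muscle lineage cells plus fibroblasts only, they were 2.80% (21 of 751) and 3.27% (132 of 4041), and the interval of the 0.470-point difference ran from -1.06 to 1.60. The share of all kept cells is a share of libraries whose keratinocyte content differed as given above, and the part of that in the difference was not tested.

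Set against fibroblasts of the same library, many satellite cell genes were higher in muscle lineage cells in both libraries. A gene was called measured with at least 20 UMIs over both groups and at least 50 CPM in the higher one, and called different at 2-fold or more. Over all 3315 genes measured in both libraries, 119 (3.59%) were higher in muscle lineage cells in both and 432 (13.0%) lower in both. Of the 24 genes in a list of satellite cell surface, niche and quiescence genes, 17 were measured in both libraries, 11 of them higher in both and 2 lower in both. The list's median log2 ratio was 2.56 in the control library and 2.67 in the JQ1 library, against medians of -0.01 and -0.01 over all genes measured there. Over the cells under 10000 UMIs, 12 of 18 were higher in both and 1 lower in both, beside 4.64% and 11.2% of 3317 genes. In single libraries the shares of genes higher and lower were 18.3% and 24.6% in the control and, under 10000 UMIs, 23.8% and 20.1% in the control and 7.9% and 18.7% in the JQ1 library. Pericytes are a possible neighbour in this comparison, since Des and Notch3 also stand in the list of pericyte and smooth muscle markers. Rgs5 and Myh11, which define pericytes and smooth muscle, were at 0 in the control cells. In the JQ1 cells Rgs5 had 66 UMIs in 5 cells, 58 of them in 1 cell, and Myh11 had 2 UMIs in 2 cells. Of the 10 pericyte and smooth muscle markers 5 were detected in the control and 9 in the JQ1 muscle lineage cells, and their summed level was 407 and 1107 CPM (697 and 941 CPM under 10000 UMIs) against 1366 and 661 CPM in fibroblasts. Their part in the satellite cell differences was not tested.

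Chrdl2 showed the widest contrast of the markers outside the rule that were measured in both libraries. It had 13 UMIs in 9 of 21 control cells (147 CPM, exact Poisson 95% interval 78.2 to 251) and 120 UMIs in 59 of 132 JQ1 cells (215 CPM, 178 to 257). Fibroblasts had 5.90 and 2.73 CPM, so the ratios were 24.9-fold (11.2 to 53.8) and 78.7-fold (56.3 to 111), and 43.9-fold and 101-fold under 10000 UMIs. Des stood at 226 and 603 CPM against 22.9 and 15.6 CPM in fibroblasts. The JQ1 level of Des rested on few cells, 71 of its 336 UMIs lying in 1 of them, and over cells under 10000 UMIs the levels were 399 and 331 CPM. Itga7 was 9.66-fold higher in the control library (3.53 to 23) and 8.23-fold in the JQ1 library (6.13 to 10.9), and 17-fold and 6.86-fold under 10000 UMIs. Megf10 was 5.89-fold (2.23 to 13.3) and 7.67-fold higher (5.27 to 10.9), and 10.4-fold and 8.39-fold under 10000 UMIs. Fgfr4 had 5 UMIs in 4 control cells and 40 UMIs in 36 JQ1 cells, the latter 103-fold above fibroblasts (53.9 to 210).

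Receptors that hold satellite cells in their niche followed the same order. Cxcr4, the receptor of the chemokine Cxcl12, stood at 147 CPM in control and 181 CPM in JQ1 muscle lineage cells, against 5.24 and 9.11 CPM in fibroblasts (28.0-fold, 12.4 to 62.2, and 19.9-fold, 15.4 to 25.6). Under 10000 UMIs the Cxcr4 ratios were 49.4-fold and 25.4-fold. Its ligand Cxcl12 had the reverse order, with 22.6 and 32.3 CPM in muscle lineage cells and 571 and 542 CPM in fibroblasts. Vcam1, an adhesion molecule of quiescent and activated satellite cells, was 6.07-fold (3.52 to 9.95) and 5.28-fold higher (4.28 to 6.45) than in fibroblasts, and 10.7-fold and 6.82-fold under 10000 UMIs. Sdc4, a heparan sulphate proteoglycan of satellite cells, stood at 1526 and 1352 CPM, 2.61-fold and 2.75-fold above fibroblasts (4.33-fold and 3.2-fold under 10000 UMIs), and was detected in 19 of 21 and 113 of 132 cells. Calcr, the calcitonin receptor of quiescent satellite cells, had 1 UMI in the control cells and 25 UMIs in 19 JQ1 cells, and 0 UMIs in the fibroblasts of either library.

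Peg3, an imprinted zinc-finger gene of muscle stem cells, headed the genes ranked by their excess over fibroblasts. It was detected in 19 of 21 and 97 of 132 cells, at 599 CPM (449 to 784) and 561 CPM (501 to 627), against 56.3 and 53.3 CPM in fibroblasts. The ratio was 10.6-fold and 10.5-fold, and 18.7-fold and 12.6-fold under 10000 UMIs. The other 19 genes of that ranking had various functions, and they include Sdc4 described above and the glycolysis genes Gapdh, Pkm and Aldoa. Also among them were the small heat-shock gene Hspb1 (2.71-fold and 2.52-fold), Hsp90ab1 (2.41-fold in the control library), Errfi1, a feedback inhibitor of EGF receptor signalling (2.73-fold and 2.92-fold), and Gpx3, a secreted glutathione peroxidase (2.39-fold and 3.81-fold). Runx1, a transcription factor of proliferating and denervated muscle, was 1.96-fold and 2.31-fold higher. Under 10000 UMIs the control ratios were 4.81-fold for Errfi1, 4.21-fold for Gpx3 and 3.39-fold for Runx1. Asb5 and Erfe were named after their values were seen. Asb5, a gene of the ankyrin and SOCS box family, was at 181 and 95 CPM against 1.31 and 0.429 CPM in fibroblasts. Erfe was at 215 and 142 CPM against 3.28 and 1.18 CPM. In 3 genes of the ranking, Slc25a5, Aldoa and Gsto1, the control excess was absent without the deepest cell, at log2 ratios of -0.076, -0.00026 and -0.32.

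**Figure D2:**
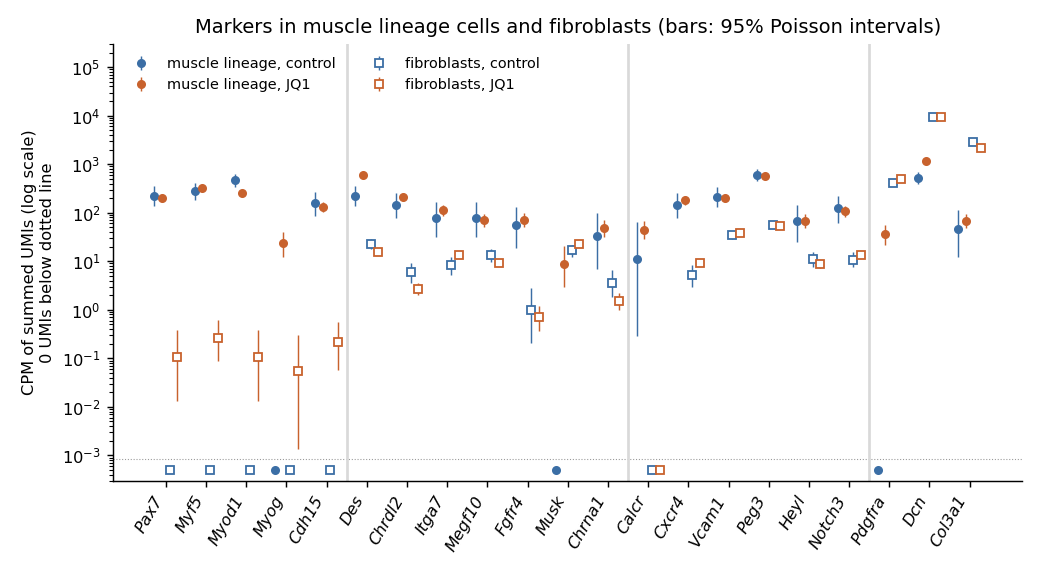
Levels of 21 genes in muscle lineage cells (filled) and fibroblasts (open) of both libraries, in CPM on a log axis with exact Poisson 95% intervals, genes with 0 UMIs drawn below the dotted line. Cxcr4, at 147 and 181 CPM against 5.24 and 9.11, and Peg3, at 599 and 561 against 56.3 and 53.3, lie above fibroblasts, and Col3a1, at 45.2 and 68.1 CPM against 2875 and 2109, lies below.

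Of the list, 2 genes were lower than in fibroblasts in both libraries. Cd34, a surface antigen of quiescent satellite cells, was at 56.5 and 86.1 CPM against 336 and 544 CPM (5.95-fold, 2.54 to 18.4, and 6.32-fold lower, 4.77 to 8.58). Under 10000 UMIs Cd34 was 3.37-fold and 5.34-fold lower. Tnfaip6, a hyaluronan-binding secreted protein, was 5.28-fold and 2.42-fold lower. Over cells under 10000 UMIs the JQ1 ratio of Tnfaip6 was 1.93-fold lower. Cd34 is also a fibroblast gene, detected in 63.2% and 74.8% of the fibroblasts here.

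Genes of craniofacial muscle origin were seen at low counts. Tongue muscle derives from migrating somitic cells that express Pax3 and Lbx1, while Tbx1 is a regulator of muscles of the head. Lbx1 had 2 control and 12 JQ1 UMIs, the latter in 9 cells, and 0 UMIs in fibroblasts of both libraries. Tbx1 had 3 and 39 UMIs, at 69.9 CPM in JQ1 cells against 1.45 CPM in fibroblasts (48.3-fold, 28.8 to 82.1). Of its JQ1 UMIs 13 were in 1 cell. Pax3 had 1 and 9 UMIs, 3.11-fold below fibroblasts in the JQ1 library (1.63 to 6.82). Over the list of 22 transcription factors of the lineage, to which these genes belong, 9 were measured in both libraries, 0 of them higher and 1 lower in both. In the JQ1 library alone 6 of 14 measured were higher (background 7.66% of 3800 genes) and 3 lower (15.9%), with a median log2 ratio of 0.32. Under 10000 UMIs 3 of 12 were higher there (background 7.9% of 3774 genes) and 2 lower (18.7%), with a median of -0.24. In both libraries under 10000 UMIs 8 were measured, 1 higher and 0 lower.

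Notch signalling is the pathway known to keep satellite cells quiescent. Of 20 Notch genes, 6 were measured in both libraries and 3 were higher than in fibroblasts in both: the receptors Notch1 and Notch3 and the effector Heyl. Notch3 stood at 124 and 108 CPM against 10.8 and 13.7 CPM (11.5-fold, 5.24 to 23.3, and 7.84-fold, 5.82 to 10.4), and 18.4-fold and 10.1-fold above fibroblasts under 10000 UMIs. Heyl stood at 67.8 and 68.1 CPM against 11.1 and 8.58 CPM. Notch1 was 2.35-fold (0.920 to 5.01) and 3.01-fold higher (2.22 to 4.01), and under 10000 UMIs its control ratio of 1.77-fold (0.360 to 5.32) did not reach 2-fold. The effector Hes1 was lower, 4.10-fold in the control and 1.5-fold in the JQ1 library, and 2.54-fold and 1.27-fold under 10000 UMIs.

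Extracellular matrix genes were low. Of 26 matrix genes 24 were measured in both libraries, 19 were lower than in fibroblasts in both and 0 were higher. The fibroblasts were chosen by Col1a1, Col1a2 and Dcn, which are in this list. The median log2 ratio was -3.89 in the control library and -1.76 in the JQ1 library, and -3.07 and -2.18 over cells under 10000 UMIs. Col3a1, the fibrillar collagen of loose connective tissue, was 63.6-fold lower in the control library (24.8 to 233) and 31.0-fold lower in the JQ1 library (22.5 to 43.7), and 36.1-fold and 26.8-fold under 10000 UMIs. Dcn was at 531 and 1146 CPM, against 9173 and 9572 CPM in fibroblasts, and was found in 6 of 21 and 61 of 132 cells. Outside the list, the acute-phase gene Saa3 was at least 129-fold lower in the control library, where its count was 0, and 57.7-fold lower in the JQ1 library. A count of 0 was set to 3 UMIs over the group for such a bound. Several growth factor genes were low as well. In a list of 24 growth factor genes 18 were measured, 9 lower in both libraries and 1 higher, and Igfbp4 was 38.6-fold and 9.31-fold lower (21.9-fold and 7.53-fold under 10000 UMIs). Its relative Igfbp5 was detected in 61.9% of muscle lineage cells and 60.7% of fibroblasts in the control library. In the JQ1 library the shares were 40.9% and 64.9%. Of 21 inflammation genes 19 were measured, 8 lower and 0 higher in both. Ccl2, a monocyte-attracting chemokine, was 4.94-fold and 3.83-fold lower (2.95-fold and 3.02-fold under 10000 UMIs).

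**Figure D3:**
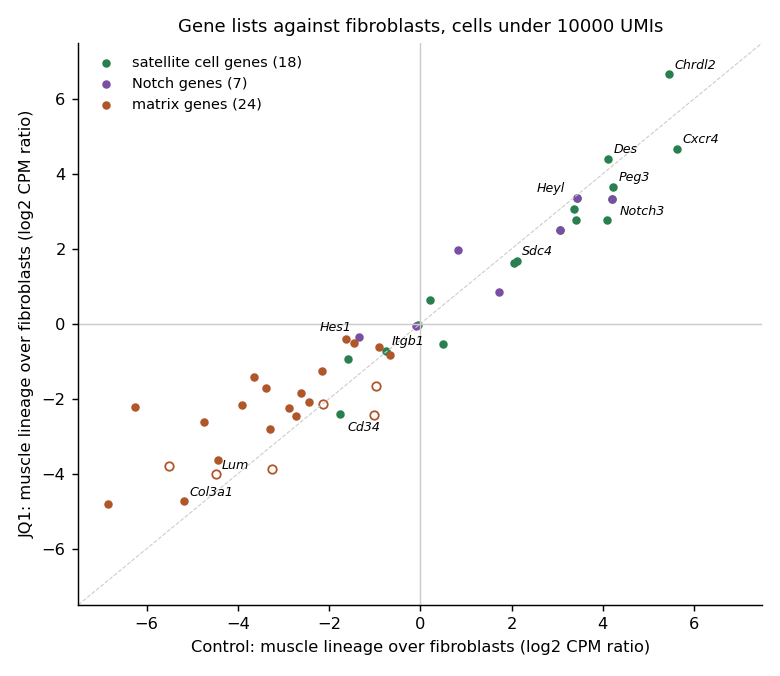
Log2 ratio of muscle lineage cells under 10000 UMIs to fibroblasts in the control (x) and JQ1 (y) library, 1 point a gene, for satellite cell genes (18), Notch genes (7) and matrix genes (24) measured in both libraries, open circles marking a ratio bounded by a count of 0. Of the satellite cell genes 12 lie past 2-fold above fibroblasts on both axes and 1 past 2-fold below, and 19 matrix genes lie past 2-fold below.

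Other lists are set beside the shares of all measured genes past 2-fold of fibroblasts. In both libraries 3.59% were higher and 13.0% lower (4.64% and 11.2% under 10000 UMIs). In the control library 18.3% were higher and 24.6% lower (23.8% and 20.1% under 10000 UMIs). In the JQ1 library 7.66% were higher and 15.9% lower (7.9% and 18.7% under 10000 UMIs). All 20 immediate early genes, which respond quickly to stimulation and to tissue dissociation, were measured in both libraries, and 0 were past 2-fold in both in either direction. In the control library 1 was higher and 6 lower (median log2 -0.61), and under 10000 UMIs 5 were higher and 3 lower (median 0.17). In the JQ1 library under 10000 UMIs 3 were higher and 0 lower, and 2 of the 20 were then higher in both libraries. Fos stood at 3968 and 4537 CPM in muscle lineage cells and 5112 and 4719 CPM in fibroblasts, and Fosb at 3233 and 4044 CPM against 2320 and 2508 CPM. The heat-shock gene Hspa1a was 2.06-fold and 1.94-fold higher than in fibroblasts. Of 20 MHC class I and antigen processing genes 13 were measured in both and 0 were past 2-fold in both, with 4 lower in the control library alone. Under 10000 UMIs 1 of 15 was higher in both and 0 lower. For the 20 interferon response genes the counts were 4 measured, 0 higher and 1 lower, for the 16 BET and P-TEFb genes 9 measured, 1 higher and 1 lower, and for the 18 glycolysis and hypoxia genes 13 measured, 1 higher and 0 lower. In the control library alone 3 of the 4 interferon genes were lower (median -1.45, and -0.44 over 6 genes under 10000 UMIs). Glycolysis genes there were higher in 5 and lower in 2, against 0 and 3 under 10000 UMIs. The BET-related gene higher in both was Myc, 2.01-fold (1.3 to 2.98) and 3.16-fold (2.76 to 3.59), and 3.54-fold and 4.03-fold under 10000 UMIs.

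Transcripts of dividing cells were scarce. Mki67, a marker of cycling cells, had 0 UMIs in the muscle lineage cells of both libraries, which for 132 JQ1 cells allows a level of up to 6.62 CPM. Fibroblasts had 5.57 and 5.04 CPM. Top2a, a topoisomerase of replicating cells, had 0 and 1 UMI. The 20 genes of G2 and M phase summed to 22.6 CPM in control and 28.7 CPM in JQ1 muscle lineage cells, against 62.9 and 58.3 CPM in fibroblasts. The 20 S phase genes summed to 215 and 326 CPM, against 222 and 283 CPM. At these counts a small cycling fraction was not detectable.

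The 4 Myog-positive cells of the JQ1 library held most of the transcripts of the contractile programme. They had 15785, 11775, 4894 and 2900 UMIs, 6.34% of the JQ1 muscle lineage UMIs, and 5, 5, 1 and 2 UMIs of Myog. Of the 1412 UMIs that JQ1 muscle lineage cells held in 27 genes of mature fibres, 1307 (92.6%) were in these 4 cells. Of the 1246 UMIs in 30 genes of differentiation and fusion, 777 (62.4%) were there. The programme was uneven among the 4. The cells held UMIs of 16, 19, 2 and 17 of the 27 fibre genes, and of 19, 21, 5 and 7 of the 30 differentiation genes. The cell with 4894 UMIs had the fewest, and it was the only one of the 4 with Pax7 (2 UMIs) and Myf5 (2 UMIs).

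Acta1, skeletal muscle actin, had 138, 141, 0 and 59 UMIs in the 4 cells in order of depth. Mylpf, the fast regulatory light chain, had 124, 199, 0 and 15 UMIs, and the fast troponin gene Tnnc2 had 55, 113, 0 and 9. Both deepest cells held developmental isoforms. Tnnt2, the cardiac and embryonic troponin T, had 25 and 53 UMIs there and 0 in the other two, and Myl4, the embryonic light chain, had 37 and 81 and then 0 and 0. Mymk (myomaker), which makes myoblasts fuse, had 4 and 7 UMIs in the same cells. The cell with 2900 UMIs differed, with 15 UMIs of Myh4, an adult fast myosin, and no UMI of Tnnt2, Myl4 or Mymk. Cdkn1a, the cell cycle inhibitor p21 that accompanies muscle differentiation, had 89, 67, 1 and 5 UMIs. Myf6, the late member of the Myod1 family, had 10, 4, 0 and 9 UMIs, 23 of the 28 in all JQ1 muscle lineage cells. Hes6, a cofactor of Myod1 activity, had 3, 47, 1 and 0.

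Contractile transcripts were few in the Pax7-positive cells without Myog. Acta1 stood at 9560 CPM in the 4 Myog-positive cells (8568 to 10636), at 20.5 CPM in the 69 Pax7-positive Myog-negative cells and at 61.1 CPM in the 59 cells with neither gene. Mef2c, a transcription factor of differentiating muscle, stood at 2065, 24.6 and 93.4 CPM, and Des at 3875, 287 and 464 CPM. Cdkn1a was also found outside the Myog-positive cells, at 4582, 418 and 471 CPM. Of the 24 satellite cell genes 17 were lowest in the Myog-positive cells, 5 were highest there and 2 lay between. The 4 Myog-positive cells hold 35354 UMIs, so a count of 0 there allows up to 104 CPM. Of the 17, Cd34, Hey1, Calcr, Sox8, Sdc3, Met and Fgfr2 had 0 UMIs there and 94.3 CPM or less in the Pax7-positive cells. For these genes the counts cannot show a difference between those 2 sets. The same holds for Megf10, Fgfr4, Vcam1 and Tnfaip6, whose intervals in the 2 sets overlapped. Megf10 was at 56.6 CPM (6.85 to 204) against 73.8 CPM, and Fgfr4 at 56.6 CPM (6.85 to 204) against 82.0 CPM. Vcam1 was at 113 CPM (30.8 to 290) against 201 CPM. Sdc4 was at 226 CPM in the Myog-positive cells, against 1537 CPM and 1333 CPM. Cxcr4 and Notch3 had 0 UMIs in the Myog-positive cells, against 221 and 168 CPM in the Pax7-positive cells. The 5 highest in the Myog-positive cells were Des, Itgb1 (1188, 242 and 395 CPM), Peg3 (1018, 680 and 399 CPM), Itga7 (283, 94.3 and 104 CPM) and Spry1 (255, 205 and 194 CPM). The interval of Spry1 in the Myog-positive cells, 116 to 483 CPM, held its levels in the other 2 sets. The intervals of Peg3 and Itga7 overlapped those in the Pax7-positive cells. These states were cut by Pax7 and Myog, so those genes are description, and 4 cells of 1 library give no measure of the spread between animals.

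**Figure D4:**
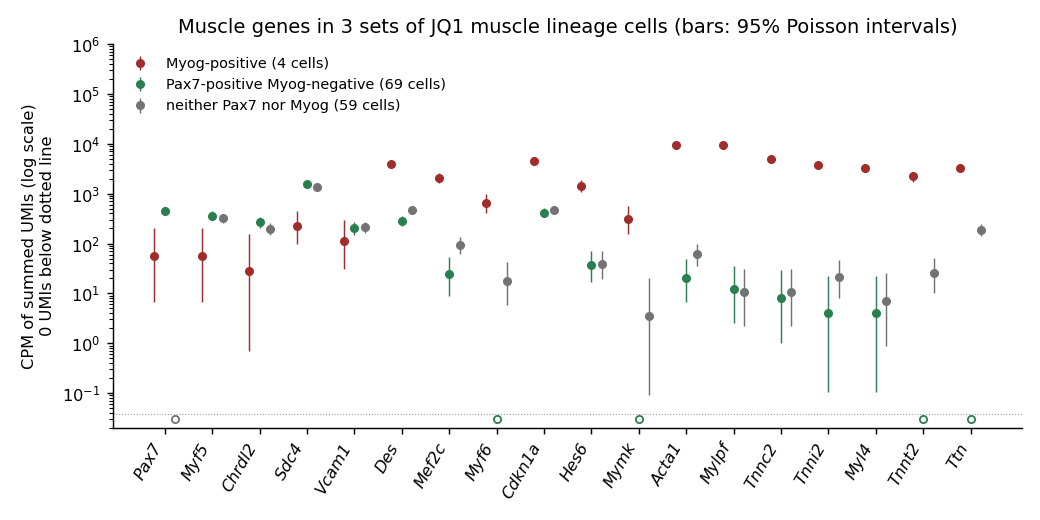
CPM of 18 genes, on a log axis, in JQ1 muscle lineage cells that are Myog-positive (4 cells), Pax7-positive Myog-negative (69 cells) or neither (59 cells), with exact Poisson 95% intervals. Acta1 stands at 9560, 20.5 and 61.1 CPM in the 3 groups, and Sdc4 at 226, 1537 and 1333 CPM.

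The promoters of genes of this programme are shown because Myod1 and Myog bind E-boxes, which have the letters CANNTG. Of 17 genes looked up, 11 had an entry in the RefSeq promoter table of build GRCm38.p6. In the 250 bases before the start, 8 of the 11 held CANNTG and 5 held CAGCTG, a form of CANNTG that myogenic factors favour. Both motifs were searched on both strands, which for these palindromes is the same search. Over all 27025 promoters of the table, windows of the same length held CANNTG in 66.0% and CAGCTG in 12.8%. The sequences run 5′ to 3′ towards the start, in lower case with each CANNTG in capitals. Myog lies at chr1:134289754-134290003 on the plus strand with 2 matches, Acta1 at chr8:123894776-123895025 on the minus strand with 2, and the first start of Tnnt2 at chr1:135836084-135836333 on the plus strand with 4.
Myog promoter: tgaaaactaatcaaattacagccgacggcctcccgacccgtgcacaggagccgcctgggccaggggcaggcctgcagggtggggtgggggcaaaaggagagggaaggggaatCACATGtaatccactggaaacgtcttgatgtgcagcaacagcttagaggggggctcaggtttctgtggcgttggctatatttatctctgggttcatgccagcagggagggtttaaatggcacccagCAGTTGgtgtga
Acta1 promoter: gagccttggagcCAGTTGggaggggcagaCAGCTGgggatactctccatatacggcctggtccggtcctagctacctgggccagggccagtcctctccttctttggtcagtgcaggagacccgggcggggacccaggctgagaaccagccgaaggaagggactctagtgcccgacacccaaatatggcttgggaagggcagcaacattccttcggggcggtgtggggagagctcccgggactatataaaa
Tnnt2 promoter: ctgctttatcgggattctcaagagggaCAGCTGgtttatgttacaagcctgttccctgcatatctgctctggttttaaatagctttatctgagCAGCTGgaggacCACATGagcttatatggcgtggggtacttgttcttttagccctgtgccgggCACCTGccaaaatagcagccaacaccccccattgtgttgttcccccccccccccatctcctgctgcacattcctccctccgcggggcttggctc
Pax7, Myf5 and Myl4 held no CANNTG in this window. A match is a run of letters and was not tested for binding.

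Between treatments, the summed counts of muscle lineage cells differed widely, and much of this lay in few cells. Of 3557 measured genes 637 (17.9%) were at least 2-fold higher in the JQ1 cells and 371 (10.4%) at least 2-fold lower. Over cells under 10000 UMIs they were 442 (13.7%) and 292 (9.07%) of 3221. These shares of all measured genes are the background for the list counts that follow. In fibroblasts of the same libraries, with many more cells, they were 33 (0.949%) and 41 (1.18%) of 3477. The median log2 ratio of all measured genes was 0.10 in muscle lineage cells, -0.05 under 10000 UMIs and 0.02 in fibroblasts.

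Between the treatments the direction of the satellite cell list turned with the deep cells. Over all measured genes 17.9% were at least 2-fold higher in the JQ1 cells and 10.4% lower (13.7% and 9.07% under 10000 UMIs). Of 24 satellite cell genes 20 were measured, with 3 at least 2-fold higher in the JQ1 cells and 0 lower. The 3 were Des (2.67-fold, 1.7 to 4.42), the integrin chain Itgb1 (2.23-fold, 1.32 to 4.06) and the proteoglycan Sdc3 (2.49-fold). The list's median log2 ratio was 0.44, and -0.24 over cells under 10000 UMIs, where 1 of 21, Calcr, was at least 2-fold higher on 1 control and 22 JQ1 UMIs. Without the deep cells Des was at 0.831 (0.519 to 1.40) and Itgb1 at 0.837 (0.486 to 1.55) of the control level. The summed level of the list was 4669 CPM in control and 5723 CPM in JQ1 cells, and 8011 and 6219 CPM under 10000 UMIs. In all cells Peg3, Sdc4, Vcam1, Cxcr4, Notch3 and Heyl lay between 0.865-fold and 1.23-fold, with intervals that held 1. Under 10000 UMIs Sdc4 was 1.61-fold lower in the JQ1 cells (1.32 to 1.95) and Peg3 1.57-fold lower (1.15 to 2.11). Vcam1, Cxcr4, Notch3 and Heyl lay there between 0.685-fold and 0.894-fold, with intervals that held 1. The 4 rule genes measured, Pax7, Myf5, Myod1 and Cdh15, were within 2-fold. Myod1 was 1.83-fold lower in the JQ1 cells, and 2.73-fold lower under 10000 UMIs (1.87 to 3.91), with 15 of its 41 control UMIs in 1 cell.

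Muscle differentiation genes were higher in the JQ1 sums, in which the 4 Myog-positive cells held 62.4% of the differentiation and 92.6% of the fibre gene UMIs. The summed level of the 30 differentiation genes was 712 CPM in control and 2235 CPM in JQ1 cells, 3.14-fold apart. Without those 4 cells the JQ1 level was 898 CPM, 1.26-fold above the same control level. That control level includes the deepest control cell. Under 10000 UMIs the sums were 1056 CPM in control and 992 CPM in JQ1 cells. The 27 fibre genes summed to 33.9 CPM on 3 control UMIs and to 2532 CPM in JQ1 cells, and to 201 CPM without the 4. Under 10000 UMIs the fibre genes were at 39.9 CPM on 2 control UMIs and at 614 CPM in JQ1 cells. The comparison without the 4 cells was added after the data were seen. Of 30 differentiation genes 11 were measured, 9 at least 2-fold higher and 0 lower (median log2 2.25). Under 10000 UMIs 7 were measured, 3 of them higher (median 0.07). Of 27 fibre genes 8 were measured, 6 higher and 0 lower (median 2.71), and 1 was measured under 10000 UMIs. The 12 measured lineage transcription factors had a median of 0.75 with 5 higher and 0 lower, and the 9 measured under 10000 UMIs had a median of 0.01 with 0 in either direction.

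Igfbp5, which binds insulin-like growth factors and is made by muscle and stroma, was lower in the JQ1 cells. It had 109 UMIs in 13 of 21 control cells (1232 CPM, 1012 to 1486) and 299 UMIs in 54 of 132 JQ1 cells (536 CPM, 477 to 601), 2.30-fold lower (1.83 to 2.87). Under 10000 UMIs it was 3.55-fold lower (2.81 to 4.46). Thinned to 2000 UMIs, 64.3% of control cells (9 of 14, 35.1 to 87.2) and 36.0% of JQ1 cells (40 of 111, 27.1 to 45.7) held a UMI, and these intervals overlap. In fibroblasts the ratio ran the other way at 1.15-fold (1.12 to 1.17). The largest count in any control cell was 25. Over the 24 growth factor genes, 14 were measured, 8 higher in the JQ1 cells and 1, Igfbp5, lower. The median was 1.5, and 0.72 under 10000 UMIs with 6 of 13 higher and 2 lower, the second being Fst (2.87-fold).

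Matrix genes were higher in the JQ1 muscle lineage cells. Of 26 genes 19 were measured, 15 at least 2-fold higher and 0 lower (median log2 1.46), and under 10000 UMIs 8 of 19 were higher and 0 lower (median 0.80). In fibroblasts 0 of 24 were past 2-fold, and the median was -0.22. Fn1 (fibronectin) had 1 control UMI and 224 JQ1 UMIs in 20 cells, 70 of them in 1 cell, a ratio of 35.5-fold (6.31 to 1410) and of 15.5-fold under 10000 UMIs (2.73 to 615). The basement membrane collagen Col4a1 had 3 UMIs in 3 control cells and 91 UMIs in 47 JQ1 cells (4.81-fold, 1.60 to 23.8, and 3.1-fold under 10000 UMIs, 1.02 to 15.4). Timp3, a metalloproteinase inhibitor of the matrix, had 6 UMIs in 5 control cells and 364 UMIs in 65 JQ1 cells (9.62-fold, 4.38 to 26.4, and 6.84-fold under 10000 UMIs, 3.11 to 18.8). After thinning it was detected in 3 of 14 control cells (21.4%, 4.66 to 50.8) and 54 of 111 JQ1 cells (48.6%, 39.0 to 58.3). Gsn (gelsolin), an actin-severing protein abundant in fibroblasts, stood at 192 CPM in control and 1496 CPM in JQ1 muscle lineage cells, 5.29-fold apart under 10000 UMIs (3.28 to 9.13). Its level in fibroblasts was 10299 and 11713 CPM. The summed level of 9 fibroblast markers moved with these genes. It was 633 CPM in control and 4207 CPM in JQ1 muscle lineage cells, 1116 and 2122 CPM under 10000 UMIs, and 38.1% and 66.7% of cells held such a UMI. Its part in the matrix and Gsn differences was not tested.

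RNA of other lineages also differed between the libraries. The 8 gland markers summed to 33.9 CPM in control and 2984 CPM in JQ1 muscle lineage cells (59.8 and 737 CPM under 10000 UMIs), and to 47.5 and 907 CPM in fibroblasts. The 6 erythroid markers were at 0 in the control cells and at 965 CPM in the JQ1 cells, with a UMI in 79.5% of the latter, and at 1.31 and 4248 CPM in fibroblasts. Within single JQ1 muscle lineage cells their median was 398 CPM, and 1 cell stood at 112416 CPM. Keratinocyte markers summed to 5177 and 269 CPM, and to 578 and 301 CPM under 10000 UMIs, against 757 and 248 CPM in fibroblasts. Of these 9 markers 7 were detected in the control cells, with a UMI in 17 of 21 cells. All 9 were detected in the JQ1 cells, with a UMI in 78 of 132. The 2 at 0 in the control cells were Trp63 and Krt15, genes of basal keratinocytes, which had 2 and 5 UMIs in the JQ1 cells. The 10 immune markers summed to 814 and 95.1 CPM with Ptprc at 0 by the rule, and the 9 endothelial markers to 45.2 and 44.8 CPM. The 72 control UMIs of the immune markers lay in 5 of 21 cells, of which 1 stood at 20006 CPM. The highest JQ1 cell stood at 2798 CPM. Schwann cell markers summed to 11.3 and 558 CPM, with Sox10 at 0 in the control cells and at 8 UMIs in 5 JQ1 cells. Tff2 and Lipf, secreted by glands and named after their values were seen, stood at 67.8 and 33.9 CPM in control and 1288 and 968 CPM in JQ1 muscle lineage cells. The JQ1 levels were close to those in JQ1 fibroblasts, at 1083 and 823 CPM.

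Among genes of inflammation and interferon response, several were higher in the JQ1 cells on few control UMIs. Of 20 interferon response genes 4 were measured, 3 higher and 0 lower (median log2 1.74), and under 10000 UMIs 5 of 8 were higher (median 1.45), while the fibroblast median was 0.43. Irf1, an interferon-induced transcription factor, had 4 UMIs in 3 control cells and 118 UMIs in 46 JQ1 cells (4.68-fold, 1.78 to 17.5, and 3.26-fold under 10000 UMIs, 1.24 to 12.2). After thinning it was detected in 21.4% of control and 23.4% of JQ1 cells, which does not follow the ratio of levels. Cxcl10, an interferon-induced chemokine, had 1 control UMI and 240 JQ1 UMIs in 25 cells, 122 of them in 1 cell. Gbp2, an interferon-induced GTPase, had 3 and 109 UMIs, 48 of the latter in 1 cell. MHC class I and antigen processing genes had a median of 0.71 (3 of 13 higher, 0 lower) and of 0.26 under 10000 UMIs (5 of 15 higher), against 0.42 in fibroblasts. H2-K1 stood at 724 and 1184 CPM, and at 1196 and 1240 CPM under 10000 UMIs. Inflammation genes had a median of 0.56 (6 of 14 higher, 0 lower) and of -0.08 under 10000 UMIs (4 of 13 higher, 1 lower). The neutrophil chemokine Cxcl1 was 4.85-fold higher and its relative Cxcl2 was at 983 CPM in control, in 4 cells, and 558 CPM in JQ1 cells.

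Notch and immediate early genes are set beside all measured genes, of which 17.9% were higher and 10.4% lower (13.7% and 9.07% under 10000 UMIs). Notch genes had a median of 0.40 (3 of 10 higher, 1 lower) and of 0.00 under 10000 UMIs (2 higher, 1 lower). Hes1 had 12 UMIs in 7 control cells and 207 UMIs in 68 JQ1 cells (2.74-fold, 1.53 to 5.38), with 2.0-fold under 10000 UMIs (1.09 to 4.07) and 1.0-fold in fibroblasts. The ligand gene Jag1 had 1 and 31 UMIs. Of 20 immediate early genes 5 were at least 2-fold higher and 0 lower (median 0.37), and 3 under 10000 UMIs (median -0.04). Ier3, a survival gene of the stress response, had 12 UMIs in 7 control cells and 455 UMIs in 89 JQ1 cells (6.02-fold, 3.41 to 11.7, and 4.12-fold under 10000 UMIs, 2.21 to 8.66). Fibroblasts were at 0.898-fold. Nr4a1, an orphan nuclear receptor, was 3.03-fold higher (1.77 to 5.61) and 2.25-fold under 10000 UMIs (1.29 to 4.29), against 1.12-fold in fibroblasts.

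Genes known to respond to BET inhibition were examined next. Hexim1, which encodes an inhibitor of the elongation factor P-TEFb, had 17 control UMIs at a level of 192 CPM, with an interval of 112 to 308, and 251 CPM in the JQ1 cells, with an interval of 211 to 296. The ratio was 1.31-fold (0.787 to 2.31) and 0.930-fold under 10000 UMIs (0.560 to 1.64). Myc stood at 294 and 452 CPM (1.54-fold, 1.03 to 2.40) and at 518 and 577 CPM under 10000 UMIs (1.11-fold, 0.742 to 1.74). Txnip was at 283 and 265 CPM, and Brd2 at 543 and 491 CPM. Of the 16 BET and P-TEFb genes 11 were measured, 3 higher and 0 lower (median 0.40, and 0.16 under 10000 UMIs). The cyclin gene Ccnd1 was 7.30-fold higher, and 3.26-fold under 10000 UMIs. Glycolysis and hypoxia genes had a median of 0.15 (3 of 15 higher, 1 lower), and 0.30 under 10000 UMIs, and of the S phase genes 2 were measured, both within 2-fold.

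**Figure D5:**
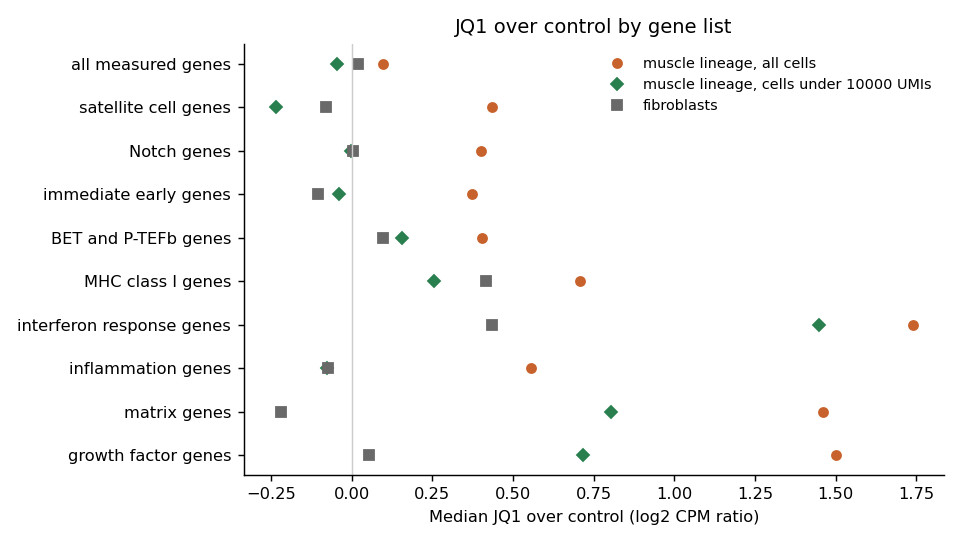
Median log2 ratio of JQ1 to control for 10 gene lists in all muscle lineage cells, in those under 10000 UMIs and in fibroblasts. The matrix list stands at 1.46, 0.80 and -0.22, while the satellite cell list stands at 0.44, -0.24 and -0.08.

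Several of the genes ranked highest and lowest by the bound of their interval had most of their UMIs in 1 cell. In the ranking of the 12 lower genes, the deepest control cell held nearly all control UMIs of Fabp5 (1530 of 1550), Prdx1 (1282 of 1324), Krt16 (327 of 332), Gstm1 (340 of 345) and Gsto1 (225 of 229). Under 10000 UMIs Fabp5 was 3.13-fold lower in the JQ1 cells (1.78 to 5.30), beside 3.46-fold lower in fibroblasts, and Prdx1 1.61-fold lower. S100a9, a neutrophil gene, had 75 of its 79 control UMIs in another cell. In the ranking of the 12 higher genes, 1 JQ1 cell held 826 of 876 Col1a1 UMIs, 480 of 556 Col1a2 UMIs, 486 of 561 Timp1 UMIs and 526 of 806 Sparc UMIs. Under 10000 UMIs Col1a1 was 2.67-fold higher (0.699 to 22.7) and Timp1 2.13-fold (0.692 to 10.7), with intervals that held 1, and Sparc 2.39-fold (1.37 to 4.54). Apod, a lipocalin of fibroblasts, had 0 control UMIs and 265 JQ1 UMIs in 21 cells, 126 of them in 1 cell, at least 14.0-fold higher.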

How the data were processed

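Tongue tumour cells of 2 groups, control and JQ1, were measured by single-cell RNA sequencing, with 1 library each. The files hold raw UMI counts of 31053 genes per barcode, as deposited by the authors. Per the submitters' processing notes, Cell Ranger 3.1.0, Seurat 4.0.0 and build mm10 were used. The sources used here do not say how introns or multimapping reads were counted. Total depth was 118382532 UMIs in the control and 99565417 UMIs in the JQ1 library.

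Members and gene lists were chosen with earlier results of these data known. UMIs were summed per library and class and divided by the total as CPM, with exact Poisson intervals, exact conditional intervals of ratios, Clopper-Pearson intervals of shares and Newcombe intervals of differences, all at 95%. They cover counting error only. A count of 0 was set to a floor of 3 UMIs over the group, and fold changes against it are bounds. A measured gene had at least 20 UMIs over both groups and 50 CPM in the higher, and a difference was counted at 2-fold. With 1 library a group there is no test and no p-value. Genes were named from 24 lists and from rankings by the interval bound nearest to 1 (12 higher and 12 lower for JQ1 against control, 20 and 10 for muscle lineage cells against fibroblasts), among genes with at least 50 UMIs, 50 CPM and a UMI in 10% of cells of the higher group. For JQ1 against control the level also had to reach 0.5 times that of all kept cells. The rankings leave out predicted genes, antigen receptor segments, genes of X inactivation and the Y chromosome, and haemoglobin, ribosomal and mitochondrial genes. Doublets were called with Scrublet and left in. The 10000-UMI limit and the denominator of muscle lineage cells plus fibroblasts were added after the data were seen. The scripts were tested on simulated data. Some genes of the lists are not reported here. Tools were matplotlib 3.10.9, scanpy 1.11.5, pandas 2.3.3, scipy 1.17.1, numpy 2.4.6 and Python 3.11.15.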

Additional observations from a re-analysis of the deposited data

Results flagged for a closer look

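Among the genes examined by name, 3 were at least 2-fold apart between JQ1 and control in both muscle lineage cells and fibroblasts, in opposite directions and with both intervals clear of 1. Genes with a smaller opposite ratio in fibroblasts, such as Igfbp5 and Ier3, are not counted here. The difference between the cell types was not tested, with 1 library per treatment. The imprinted transcript H19 had a log2 ratio of 4.44 in muscle lineage cells and -2.81 in fibroblasts, with 223 of its 273 JQ1 UMIs in 1 cell, and was 2.38-fold higher under 10000 UMIs (0.619 to 20.3). Aldh3a1, an aldehyde dehydrogenase of epithelium, had log2 ratios of -5.59 and 1.24, with 128 of its 130 control UMIs in the deepest control cell. Acta2, smooth muscle actin, had log2 ratios of 3.63 and -1.52. It had 1 UMI in the control cells and 78 UMIs in 39 JQ1 cells, a ratio of 12.4-fold (2.16 to 495) and of 9.07-fold under 10000 UMIs (1.58 to 363). The summed pericyte and smooth muscle markers, of which Acta2 is one, were 407 CPM in control and 1107 CPM in JQ1 cells, and their part in the Acta2 difference was not tested.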

How the results depend on the processing

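Under the alternatives, 230 of the summary values stayed within their counting interval or within 1.5 times a count, and 33 moved. Of the values of single genes 649 stayed, 200 moved and 12 changed direction. The cause was not tested for any of them. A threshold of 3 rule UMIs gave shares of 0.157% and 0.553%, 0.396 points apart, medians of -0.71 for satellite cell and -0.42 for immediate early genes (JQ1 over control), and log2 ratios of 0.46 for Gsta4, 1.08 for Gstm1, 1.74 for Gsto1 and 1.03 for Taldo1. Asking for 2 rule genes gave a JQ1 share of 0.588%, a difference of 0.418 points, a satellite cell median of -0.56, and 0.81 for Gstm1 and 0.51 for Taldo1. Thinning to 2000 UMIs gave shares of 0.155% and 0.646% and, among JQ1 members, 36.9% Pax7-positive Myog-negative and 61.3% with neither. Thinning to 1000 gave 0.126% and 0.340%, 0.214 points apart. The low-keratin denominator gave a control share of 0.596% and a difference of 0.400 points, and muscle lineage cells plus fibroblasts 2.80% and 3.27%. For matrix genes against fibroblasts in the JQ1 library the median was -2.53 without cells at the fibroblast limit, -2.32 with equal weight per cell and -2.18 under 10000 UMIs. Equal weight also gave -0.063 for Des and 0.088 for immediate early genes (JQ1 over control), and 0.17 for the latter against JQ1 fibroblasts. Without a low-count filter 1189 genes were higher and 1021 lower in JQ1 cells. At 1.5-fold these were 1059 and 772, and 308 and 717 against fibroblasts in both libraries. Under 10000 UMIs the log2 ratios of JQ1 to control were 1.17 for Gstm1, -0.27 for Des and -0.039 for immediate early genes. The latter stood at 0.17 and 0.18 against control and JQ1 fibroblasts, and the control ratios to fibroblasts were -0.076 for Slc25a5, -0.00026 for Aldoa and -0.32 for Gsto1. No paired analysis was possible because each group has 1 library, and for the same reason no replicate could be left out. Depth limits the control group most, with 88462 UMIs in 21 cells.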
